A study of Mus musculus with 6 samples.

Results

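Ebp and Cyp46a1 stand at opposite ends of cholesterol handling in the brain, and both were read here in the hypothalamus of mice given collagen or adjuvant. The 2 genes, of 8726 named on the array, were found by platform gene symbol, which gave 1 probe for Ebp (probe 1608, Entrez Gene 13595) and 1 probe for Cyp46a1 (probe 753, Entrez Gene 13116) among 10080 probes. The pair was picked with results of the same arrays in view. Ebp had a log2 ratio above 0 on 6 of 6 arrays, as did 0.259% of the tested probes. Cyp46a1 was found in collagen on 6 arrays but in control on only 3, a pattern shown by 0.0397% of all probes. The genes were thus selected on log ratios and detection calls of this comparison, which are given as a description, with no test.

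The collagen group was male DBA/1 mice, 8 weeks old, injected intradermally with a mixture of type II collagen (100 ul) and complete Freund's adjuvant (100 ul). The control group was male DBA/1 mice of the same age given 200 ul of the adjuvant without collagen. Both groups also received lipopolysaccharide at day 24, so adjuvant and lipopolysaccharide are common to all samples. Collagen and the smaller volume of adjuvant came together, and their parts cannot be told apart. Each of 3 biological replicates was hybridised on 2 arrays, one with collagen in Cy5 and one with collagen in Cy3, and the 3 files of an array were taken to be its repeat scans. The labels do not say whether a replicate was 1 mouse or a pool, and disease scores were not used here. In whole hypothalamus, fewer cells of a type and less RNA per cell cannot be told apart.

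Cholesterol hardly crosses the blood-brain barrier, so the brain makes its own and must dispose of the surplus. Ebp, the emopamil-binding protein, is a sterol isomerase of the endoplasmic reticulum that moves a double bond in the sterol ring on the way from lanosterol to cholesterol. Cyp46a1, cholesterol 24-hydroxylase, is a cytochrome P450 found mainly in neurons that turns cholesterol into a hydroxysterol able to leave the brain. Genes of the synthesis pathway are controlled by the transcription factors Srebf1 and Srebf2, and GC boxes, bound by Sp1, and CCAAT boxes, bound by NF-Y, are common beside the sterol regulatory elements that these factors bind.

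The promoters of both genes are shown for the sequence around the gene starts. Where the probes lie in the 2 transcripts was not given in the sources used here. Both matched the RefSeq table (build GRCm38.p6), and each stretch of 300 bases runs from 250 bases before to 50 bases after the gene's start. Capitals mark GGGCGG (GC box) and CCAAT, searched on both strands, so that ATTGG is CCAAT read on the opposite strand. The Ebp stretch is chrX:8193463-8193762 on the minus strand, and the Cyp46a1 stretch is chr12:108334066-108334365 on the plus strand.
Ebp: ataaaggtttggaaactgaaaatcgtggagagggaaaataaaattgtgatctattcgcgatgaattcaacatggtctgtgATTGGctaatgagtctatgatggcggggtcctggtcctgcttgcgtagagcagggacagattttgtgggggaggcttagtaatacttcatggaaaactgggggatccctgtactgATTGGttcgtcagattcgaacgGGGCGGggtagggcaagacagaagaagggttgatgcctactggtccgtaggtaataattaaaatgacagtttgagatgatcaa
Cyp46a1: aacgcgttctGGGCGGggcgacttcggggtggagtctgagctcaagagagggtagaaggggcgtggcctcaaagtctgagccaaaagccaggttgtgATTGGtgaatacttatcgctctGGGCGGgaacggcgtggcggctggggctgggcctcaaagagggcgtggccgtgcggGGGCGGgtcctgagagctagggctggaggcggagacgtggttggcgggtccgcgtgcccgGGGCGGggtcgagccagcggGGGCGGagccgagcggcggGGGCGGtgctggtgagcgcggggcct

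The Ebp promoter held 1 GC box and 2 CCAAT boxes and had a GC content of 45.3%. The Cyp46a1 promoter held 6 GC boxes and 1 CCAAT box and had a GC content of 70.3%, where the median over all 32851 promoters of the table was 52.7%. The motifs did not overlap each other in either stretch. GGGCGG was found in 35.7% of all promoters of this length and CCAAT in 37.4%. The sterol regulatory element core TCACNCCAC, searched on both strands, was found in neither stretch and in 1.24% of all promoters. These matches describe letters in these windows only.

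Both probes were printed near the same edge of the slide. Ebp lay in the second row and Cyp46a1 in the first row of the fourth column of printing blocks, and both were in slide column 48, at slide rows 24 and 9. On 1 array, that of replicate 1 with collagen in Cy3, this edge stood apart from the rest of the slide. There the median log2 ratio over the first 8 blocks of that column, a region picked with the data seen, exceeded that of the other spots by 2.56. The same difference was -0.11 to 0.16 on the other 5 arrays. All log2 ratios of that array had an SD of 1.66, where the other arrays had 0.38 to 0.67. Results for both genes are therefore also given without this array. The direction of every ratio assumes that channel A held Cy3, as the order of the channels in the labels has it, and no source states this. With the dyes the other way round all signs would turn.

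A ratio was obtained for 46.1% to 84.9% of spots per array, and the number of arrays limits the precision. Channel A was accepted far more often than channel B. A channel is called rejected where its deposited intensity was 0, and accepted otherwise. Counting a spot as detected when accepted in at least 2 of 3 scans, collagen samples were accepted at 41.8% to 43.9% of spots when in Cy5 and at 84.4% to 96.0% when in Cy3. Control samples were accepted at 37.9% to 66.6% of spots when in Cy5 and at 86.5% to 89.3% when in Cy3. Log2 ratios of the 2 arrays of a replicate, turned to collagen over control, correlated across the 2316 tested probes at -0.20, -0.75 and -0.32 in replicates 1, 2 and 3. Probes are not independent, and these values are a description. Of 14 hypothalamic markers, 10 had a named probe, and Gal, Gnrh1 and Pmch were detected in both groups on all arrays. Of 7 neuronal markers with a probe 1 was so detected, of 3 astrocyte markers 2, and of 4 oligodendrocyte and 4 microglial markers 0. Endothelial markers had no probe, and of 2 pituitary markers Pitx1 was so detected. Each of the 31 marker probes was detected in at least 1 sample. Over all 10080 probes, 1573 were detected in both groups on all arrays. The marker counts describe calls only, and tissue content was not tested.

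Ebp had a ratio on all arrays. Its log2 ratio of collagen over control was 0.20 with collagen in Cy5 and 1.10 with collagen in Cy3 in replicate 1. It was 0.45 with collagen in Cy5 and 1.27 with collagen in Cy3 in replicate 2, and 0.063 with collagen in Cy5 and 0.47 with collagen in Cy3 in replicate 3. All 6 values were above 0, and in every replicate the array with collagen in Cy3 gave the higher one. The replicate values were 0.65, 0.86 and 0.26, with a mean of 0.59 ± 0.30 (SD, n = 3), which is a ratio of 1.51. By dye, the mean was 0.95 ± 0.42 with collagen in Cy3 and 0.24 ± 0.19 with collagen in Cy5 (SD, n = 3 each). The size of the Ebp ratio thus differed between the orientations by more than the SD over replicates. Its shared sign is the value on which Ebp was chosen.

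**Figure D1:**
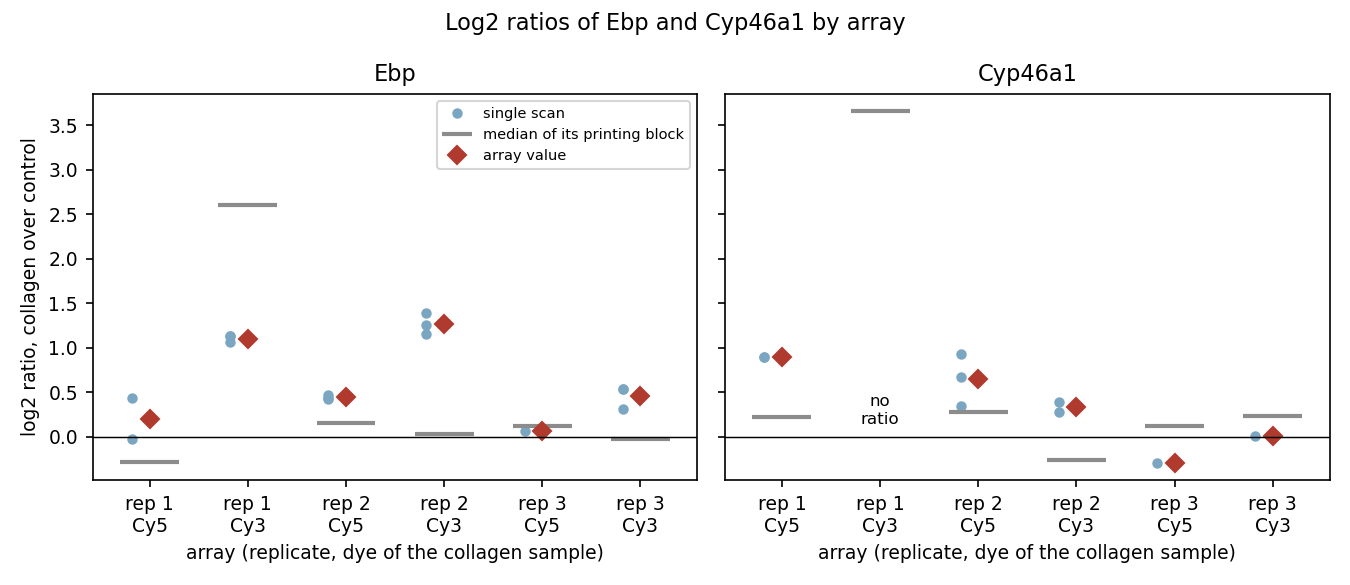
Log2 ratio of collagen over control (y axis) for Ebp and Cyp46a1 on the 6 arrays (x axis: replicate and dye of the collagen sample). Small points are single scans, diamonds the array values and grey bars the median of the other spots of the same printing block. Ebp lies between 0.063 and 1.27, with its block at 2.60 where replicate 1 had collagen in Cy3, and Cyp46a1 has no ratio there.

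A ratio above 0 on 6 of 6 arrays was found for 6 of the 2316 tested probes (0.259%), and a ratio below 0 on all 6 for 12 probes (0.518%). A further 93 probes were above 0 on 5 arrays. Ebp entered the first set with its lowest array at 0.063, and among the 6 probes the lowest array value ranged from 0.014 to 0.23. Its mean was the smallest of the 6, which reached 1.04 for Pnoc, the nociceptin precursor. By mean log2 ratio alone Ebp ranked 76 of 2316. The fit over the whole table, limma with Benjamini-Hochberg adjustment, called 0 of 2316 probes (0%), with 25 at an unadjusted p under 0.05.

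Detection of Ebp was near even between the groups. Over 18 scans it was accepted 15 times for collagen and 16 times for control. By acceptance in at least 2 of 3 scans 5 arrays had it in the collagen channel and 6 in the control channel, the array short of this being that of replicate 3 with collagen in Cy5. All 3 scans were accepted on 4 arrays in either group, and 1 scan or more on 6 arrays in either group.

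Single scans of Ebp spread most in replicate 1 with collagen in Cy5. Of the 15 scans with a ratio, 14 were above 0. On the replicate 1 array with collagen in Cy5 the 2 accepted scans read 0.43 and -0.025, and 1 scan was rejected in both channels. On the replicate 3 array with collagen in Cy5 the array value of 0.063 came from 1 scan. The 4 other arrays had 3 scans each, and the SD over their scans was 0.023 to 0.13. Before the smoothing against intensity, 11 of the 15 scans were above 0, so in 3 scans the sign came with the normalization.

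Ebp was brighter over its local background in replicate 2 than in the other replicates. In the first scan of the replicate 2 array with collagen in Cy5, the spot read 1619 per pixel above a background of 395 in the collagen channel and 1346 above 716 in the control channel. With collagen in Cy3 it read 1671 above 722 in the collagen channel and 1238 above 314 in the control channel. Spot brightness over background was 5.10 for collagen and 2.88 for control with collagen in Cy5, and 3.31 for collagen and 4.94 for control with collagen in Cy3. Whichever group carried Cy5 was thus further above its background in replicate 2.

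In the first scan of replicate 1 with collagen in Cy5, Ebp read 181 per pixel above 210 in the collagen channel and 478 above 394 in the control channel. In replicate 3 it was close to background in both groups. The first scan with collagen in Cy5 gave 186 per pixel above 367 in the collagen channel and 203 above 409 in the control channel. With collagen in Cy3 it gave 310 above 494 in the collagen channel and 223 above 418 in the control channel. Brightness over background in replicate 3 was at most 1.84 for collagen and 1.89 for control over the accepted scans.

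**Figure D2:**
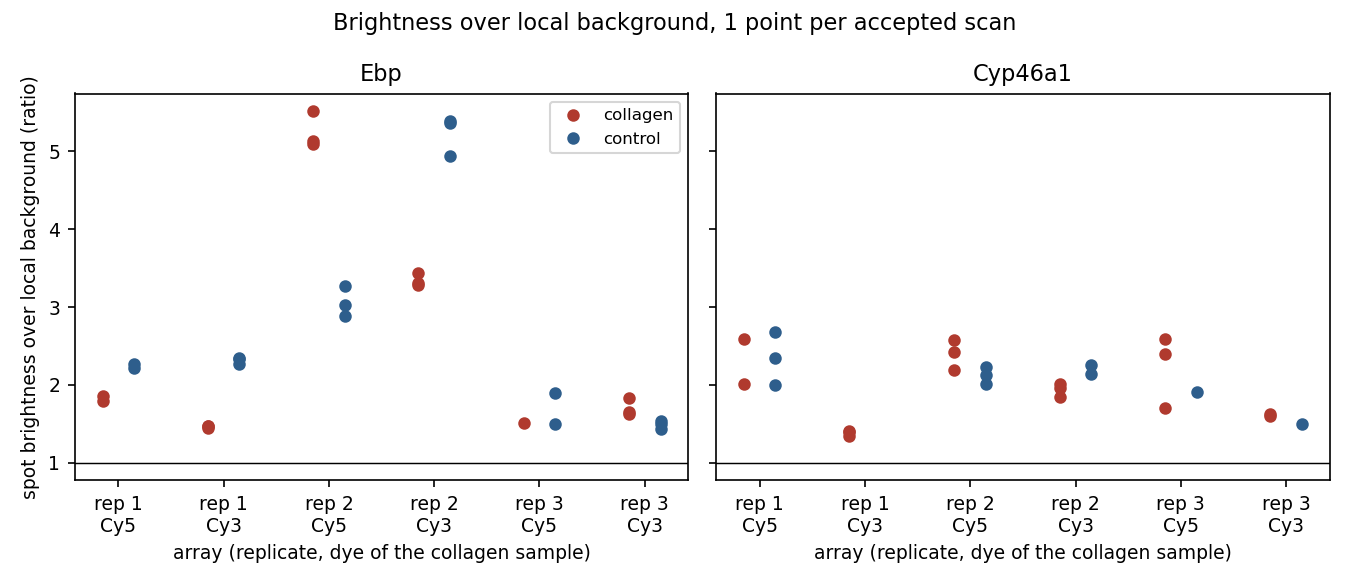
Spot brightness over local background (y axis, a ratio where 1 is background) for Ebp and Cyp46a1 on the 6 arrays (x axis: replicate and dye of the collagen sample), with 1 point per accepted scan, collagen left and control right. Ebp reaches 5.52 in collagen and 5.39 in control in replicate 2, and no accepted Cyp46a1 scan exceeds 2.59 in collagen or 2.67 in control.

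The edge of the slide moved with the second-highest Ebp value. With collagen in Cy3 in replicate 1, the first scan gave 2872 per pixel above a background of 6030 in the collagen channel and 631 above 468 in the control channel. Channel A background at the Ebp spot was 394 to 722 on the other 5 arrays. On this array the other spots of Ebp's printing block had a median log2 ratio of 2.60, and Ebp at 1.10 lay above 23.4% of the 128 measured ones. On the other arrays Ebp exceeded its block median by 0.49 in replicate 1, by 0.29 and 1.24 in replicate 2 and by 0.48 in replicate 3 with collagen in Cy3. In replicate 3 with collagen in Cy5 its distance from that median was -0.057. The part of the slide edge in the Ebp result was not tested beyond the values that follow.

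Smoothing within printing blocks (print-tip loess) gave Ebp log2 ratios of 0.32 and -1.50 in replicate 1, 0.21 and 1.46 in replicate 2, and -0.024 and 0.42 in replicate 3, in each case with collagen in Cy5 and then in Cy3. That setting left 4 of 6 arrays above 0 and a mean of 0.15. Median centring gave a mean of 0.16 with 4 of 6 arrays above 0. Without the replicate 1 array with collagen in Cy3, a setting chosen after seeing the data, the mean was 0.44 with 5 of 5 arrays above 0. The authors' deposited table listed Ebp on 4 arrays, at -0.079 in replicate 1 with collagen in Cy3, 0.12 in replicate 2 with collagen in Cy5, and -0.10 and 0.16 in replicate 3 with collagen in Cy5 and in Cy3. Of these values in the authors' deposited table, whose log base and direction are not stated, 2 had the sign found here and 2 did not.

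**Figure D3:**
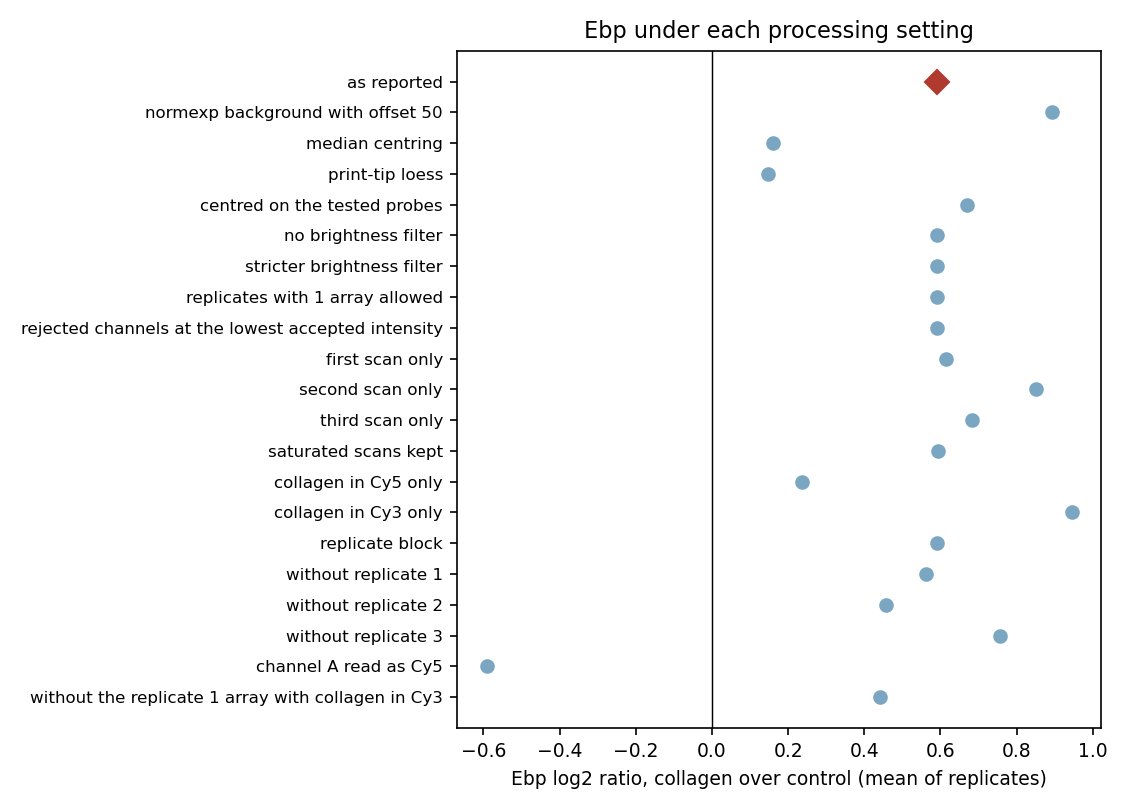
Mean log2 ratio of Ebp, collagen over control (x axis), under each processing setting (y axis), with the reported value as a diamond. Values run from 0.15 with print-tip loess to 0.95 with collagen in Cy3 only, and -0.59 appears where channel A is read as Cy5. The authors' deposited table is not plotted, since its scale is not stated.

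The tested probes nearest to Ebp over the 6 array values, by Euclidean distance of log2 ratios, were Sema4g, Cplx1, Oca2, Btf3 and Pex26, at distances of 0.85 to 1.12. Sema4g encodes a semaphorin, Cplx1 a complexin that regulates vesicle fusion, Btf3 a transcription factor that also binds nascent peptides, Oca2 a melanosome transporter and Pex26 a factor of peroxisome import. Their mean log2 ratios ran from 0.25 for Pex26 to 0.65 for Oca2, and they were above 0 on 4 or 5 of the 6 arrays. All but Pex26 were printed in the fourth block column, as Ebp was, though Cplx1 lay there outside the edge region described above. That is 1 of 4 block columns, and the count was not compared with the share of tested probes printed there. Each of the 5 was higher with collagen in Cy3 than in Cy5 in replicates 1 and 2, as Ebp was. The 5 were picked for closeness to the 6 Ebp values. Their signs and this dye order therefore largely follow from that choice and are a description only.

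Cyp46a1 was accepted more often in the collagen channel than in the control channel. Over 18 scans it was accepted 16 times for collagen and 10 times for control, with both channels accepted in 9 scans, collagen alone in 7, control alone in 1 and neither in 1. By acceptance in at least 2 of 3 scans, collagen reached detection on 6 arrays and control on 3. Without the replicate 1 array with collagen in Cy3 these were 5 and 3. Control was accepted in all 3 scans of replicate 1 with collagen in Cy5 and of replicate 2 with collagen in Cy5, and in 2 scans of replicate 2 with collagen in Cy3. It was accepted in 0 scans of replicate 1 with collagen in Cy3 and in 1 scan of each replicate 3 array. The calls for control thus fell short on arrays of both orientations.

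**Figure D4:**
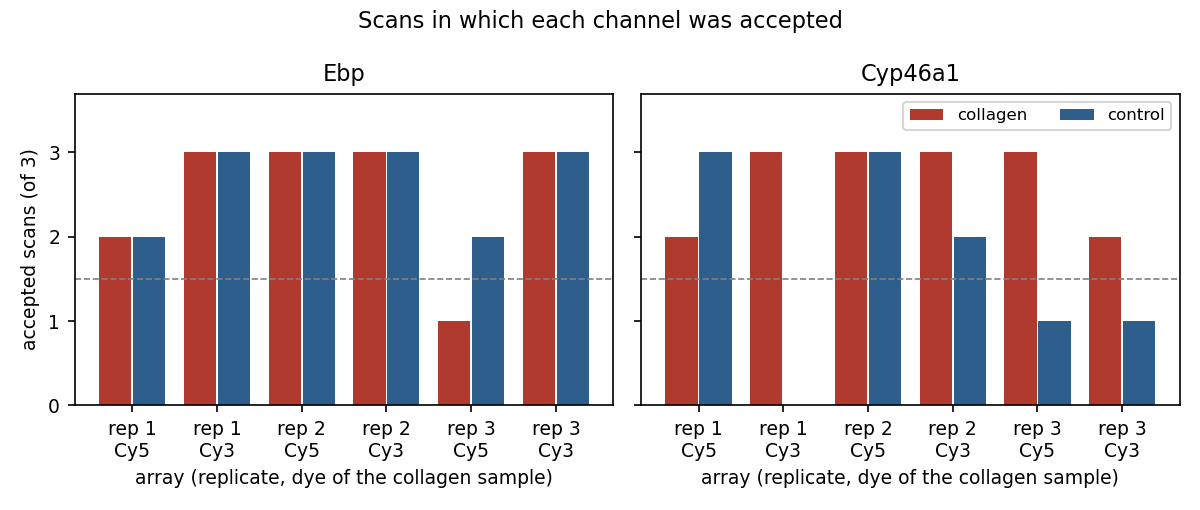
Number of scans out of 3 in which the collagen channel (left bars) and the control channel (right bars) were accepted on each array (x axis: replicate and dye of the collagen sample). The dashed line lies between 1 and 2 scans, so bars above it count as detected, which Cyp46a1 reaches on 6 arrays in collagen and on 3 in control.

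The detection difference of Cyp46a1 depended on the scans required. Where 1 accepted scan sufficed, the arrays were 6 for collagen and 5 for control, and where all 3 scans were required they were 4 for collagen and 2 for control. With scan 1 alone they were 6 for collagen and 3 for control, with scan 2 alone 4 for collagen and 3 for control, and with scan 3 alone 6 for collagen and 4 for control. Collagen exceeded control under each of these rules, as it did for 1337 to 3300 of the 10080 probes depending on the rule, while control exceeded collagen for 2434 to 3439. This excess is the value on which Cyp46a1 was chosen.

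Of the 10080 probes, 4 (0.0397%) were detected on 6 arrays for collagen with at most 3 for control, and 3 (0.0298%) showed the reverse. Just outside, 39 probes reached 6 arrays for collagen and 4 for control. Where 1 accepted scan sufficed, 0 probes had the first pattern and 28 the reverse. The 4 probes were Get4, Cyp46a1, Siah2 and Izumo1r, named after their values were seen. All 4 were printed in the fourth block column, 1 of 4 such columns, and Get4, Cyp46a1 and Siah2 shared its first block. No other probe had the same 12 detection calls as Cyp46a1, and 79 probes differed from it in 1 call. The closest probes by detection were therefore too many to name.

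Ratios of Cyp46a1 existed on 5 arrays, without that of replicate 1 with collagen in Cy3. The log2 ratio of collagen over control was 0.90 in replicate 1 with collagen in Cy5. It was 0.65 with collagen in Cy5 and 0.34 with collagen in Cy3 in replicate 2, and -0.29 with collagen in Cy5 and 0.013 with collagen in Cy3 in replicate 3. Thus 4 of 5 values were above 0, and replicates 2 and 3 lay on opposite sides of 0. Of its 9 scans with a ratio, 8 were above 0 after the smoothing against intensity and 3 before it, so in most scans the sign came with the normalization. With both arrays required, replicate 2 was at 0.50 and replicate 3 at -0.14, with a mean of 0.18 ± 0.45 (SD, n = 2). With replicate 1 entered from its single array, and so with no dye swap for it, the mean was 0.42 ± 0.52 (SD, n = 3). In both cases the spread between replicates exceeded the mean.

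The arrays on which control was rejected differed in how common such a pattern was. With collagen in Cy3 in replicate 1, where Cyp46a1 had no ratio, 5862 spots were detected in collagen alone and 8 in control alone. Channel A at the Cyp46a1 spot read 1807 per pixel above a background of 5189 in the first scan, against backgrounds of 467 to 747 on the other 4 arrays where it was accepted. The other measured spots of its block had a median log2 ratio of 3.66 on that array. With collagen in Cy3 in replicate 3, 2950 spots were detected in collagen alone. On the replicate 3 array with collagen in Cy5 only 90 spots, or 0.893%, showed this pattern, and Cyp46a1 was one of them. Of these 90 spots, 13 lay in the fourth block column and 2, Cyp46a1 included, in the printing block of Cyp46a1.

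Scans of that last array went different ways. With collagen in Cy5 in replicate 3, scans 1 and 2 gave Cyp46a1 502 and 775 per pixel in the collagen channel and a rejected control channel. Scan 3 gave 231 per pixel in the collagen channel and 640 in the control channel. The only ratio of Cyp46a1 from this array, -0.29, thus came from scan 3, with a log2 ratio of -1.47 before smoothing. A brighter control channel does not set that scan apart. With collagen in Cy5 in replicates 1 and 2, the log2 ratios before smoothing were -1.07 to -0.57, and all were above 0 after it. Of the 90 spots detected in collagen alone on the replicate 3 array with collagen in Cy5, 14 were accepted in both channels in scan 3. Log2 ratios of the scans of this array correlated at 0.54 to 0.66 across spots, against 0.70 to 0.97 for the scans of the other arrays.

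Cyp46a1 stayed close to background wherever it was measured. Its brightness over background ran from 1.35 to 2.59 in collagen over 16 accepted scans and from 1.50 to 2.67 in control over 10. In the first scan of replicate 2 with collagen in Cy5 it read 471 per pixel above 395 in the collagen channel and 752 above 747 in the control channel. With collagen in Cy3 it read 475 above 566 in the collagen channel and 320 above 255 in the control channel. Relative to its own printing block it was higher by 0.68, 0.37 and 0.60 in replicate 1 with collagen in Cy5 and in replicate 2 with collagen in Cy5 and in Cy3. In replicate 3 it stood at -0.41 and -0.23 relative to the block, with collagen in Cy5 and in Cy3. With print-tip loess the mean of replicates 2 and 3 was -0.0042, so its direction turned. The authors' deposited table listed Cyp46a1 on 4 arrays, at 0.11 and 0.066 in replicate 2 and at 0.20 and -0.19 in replicate 3, with collagen in Cy5 and then in Cy3.

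Other genes of sterol handling give the setting for both. Lists of 67 genes were written for synthesis, regulation and uptake, turnover, transport and relatives of the isomerase, and 33 of the genes had a named probe. Besides Ebp, 8 of them had a ratio on all arrays and were tested, and Cyp46a1 did not. Limma called 0 of the 8 at an adjusted p under 0.05, and 0 had an unadjusted p under 0.05, against 0 and 25 of 2316 over all probes. Over all 2316 tested probes, 781 means were positive and 1535 negative, with a median log2 ratio of -0.089. Of the 8 genes, 3 had positive and 5 negative means, with a median of -0.18. Their limma adjusted p over all probes was 0.872 for 6 of them, 0.880 for Sqle and 0.981 for Erg28.

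**Figure D5:**
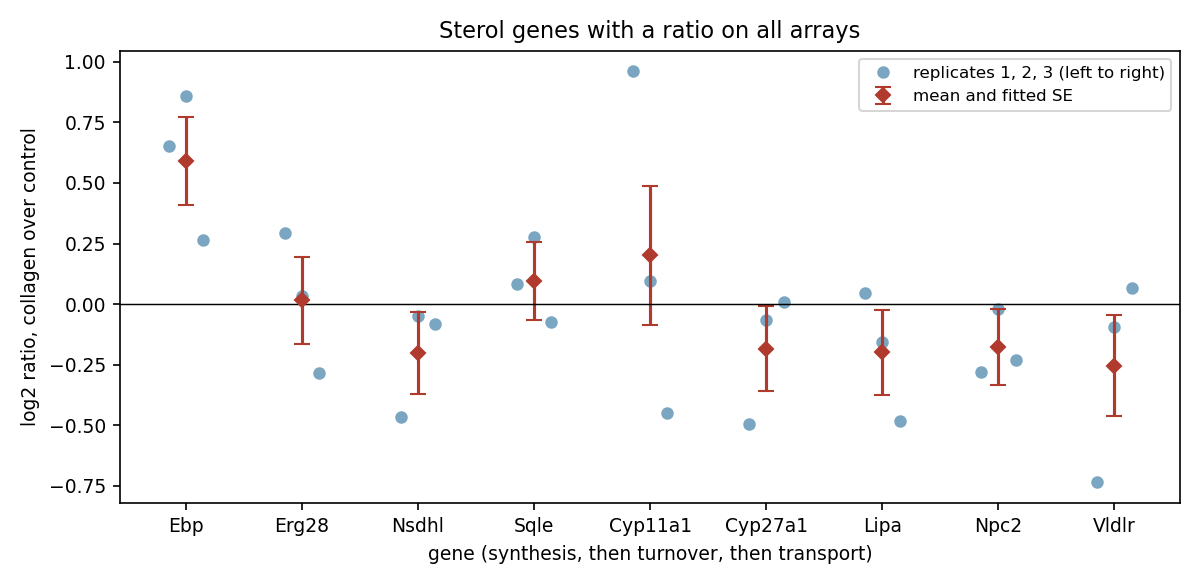
Log2 ratio of collagen over control (y axis) for the 9 sterol genes with a ratio on all arrays, Ebp included (x axis). Blue points are replicates 1, 2 and 3 from left to right, and red diamonds with bars are means with the fitted SE. Ebp has its 3 replicates above 0, between 0.26 and 0.86, and the replicates of Nsdhl and Npc2 lie below 0.

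Of the 22 synthesis genes, 13 had a probe and 4 a ratio on all arrays. Sqle, squalene epoxidase, acts before the sterol ring is closed. Its log2 ratio was -1.08 with collagen in Cy5 and 1.25 with collagen in Cy3 in replicate 1, -1.56 and 2.12 in replicate 2, and -0.15 and 0.0056 in replicate 3. Its arrays thus followed the dye, and its mean was 0.095 ± 0.16 (fitted SE, as for the means that follow, over 3 replicates). That mean was 0.0037 without replicate 2, 0.18 without replicate 3 and 0.20 with print-tip loess. Nsdhl, a sterol dehydrogenase that acts shortly before Ebp, had replicate values of -0.47, -0.049 and -0.084 and a mean of -0.20 ± 0.17. It was below 0 on 5 of 6 arrays. Nsdhl lay in the fourth block column like Ebp, but outside the edge region described above. Where replicate 1 had collagen in Cy3 it read -0.90. Its mean was -0.066 without replicate 1 and -0.44 with print-tip loess. Erg28, a scaffold of the enzymes that remove methyl groups from sterols, had replicate values of 0.29, 0.034 and -0.28 and a mean of 0.015 ± 0.18, which turned to -0.17 with print-tip loess and to -0.12 without replicate 1.

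The other synthesis genes had ratios on too few arrays to be tested. Mvk, mevalonate kinase, had 5, from -0.26 to 0.54, and Mvd, which decarboxylates mevalonate diphosphate, had 4, from -0.15 to 0.22. Fdft1, squalene synthase, and Pmvk had 3 each, from -0.13 to 0.53 and from -0.26 to 0.60. Of the genes with 2 ratios, Msmo1, a sterol oxidase that acts before Ebp, read 0.81 and 0.021, Hsd17b7, a sterol ketone reductase, 0.27 and 0.32, and Idi1, an isomerase of isoprenoid units, 0.12 and 0.11. Sc5d, the desaturase that acts after Ebp, read -0.90 and -0.25 on its 2 arrays, and Tm7sf2, a sterol reductase, had 1 ratio, at -0.55. Values on both sides of 0 were thus found among the neighbours of Ebp in the pathway. Srebf1, a regulator of the pathway, had ratios on 5 arrays, reading 3.14 where replicate 1 had collagen in Cy3 and between -0.050 and 0.74 elsewhere. Its probe also lay in the fourth block column. Mbtps1, the protease that cleaves the Srebf precursors, had 2 probes with 3 ratios each, from -0.23 to 0.70 and from -0.60 to 0.062.

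Of 10 turnover genes, 8 had a probe and 2 were tested. Cyp27a1, a mitochondrial sterol hydroxylase, had replicate values of -0.50, -0.064 and 0.0088 and a mean of -0.18 ± 0.18. Its mean ranged from -0.28 to -0.027 without single replicates, the last without replicate 1. Cyp11a1, which cleaves the side chain of cholesterol to start steroid synthesis, had replicate values of 0.96, 0.095 and -0.45 and a mean of 0.20 ± 0.29. It lay in the fourth block column and read 1.88 where replicate 1 had collagen in Cy3. Its mean turned to -0.18 without replicate 1 and to -0.14 with print-tip loess. Cyp7b1, an oxysterol hydroxylase, had 2 ratios, -0.63 and -0.32, both in replicate 3. Cyp7a1, the rate-limiting enzyme of bile acid synthesis in liver, had 2, at 0.25 and -0.12. Hsd3b7, a later enzyme of that pathway, had 2, with 4.53 where replicate 1 had collagen in Cy3 and 0.25 in replicate 3. Its probe lay in block column 3, not in the fourth. Ch25h, which adds a hydroxyl group to the cholesterol side chain, had 1 ratio, at -0.15, and Cyp39a1, reported to act on the product of Cyp46a1, had none.

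Of 20 transport genes, 10 had a probe and 3 were tested. All 3 had negative means, as did 1535 of the 2316 tested probes. Lipa, the lysosomal acid lipase, had a mean of -0.20 ± 0.17, and Npc2, which carries cholesterol out of lysosomes, -0.18 ± 0.16, or -0.11 with print-tip loess. Vldlr, a lipoprotein receptor, had a mean of -0.25 ± 0.21, which was -0.014 without replicate 1, -0.41 without replicate 3 and -0.14 with print-tip loess. Lipa was at -0.32 without replicate 1 and at -0.056 without replicate 3. Lrp1, a receptor for apolipoprotein E, had ratios on 5 arrays between -0.47 and 0.35. Stard3, a cholesterol-binding protein of endosomes, had 5 between -0.15 and 0.54, and Star, which brings cholesterol into mitochondria, had 4 between -0.998 and 0.43. The sterol exporters Abca1 and Abcg1 had 1 ratio each, at 0.59 and 0.25, Npc1 had 1 at 0.13, and the lipoprotein receptor Scarb1 had 2, at -0.52 and -0.065. The limma adjusted p was 0.872 for each of the 3 tested transport genes, which is the lowest value of any tested probe. The other transport genes had no test.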

How the data were processed

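RNA of collagen-injected and control mice was compared directly on 6 arrays of 10080 spots. Per the file headers, the deposited intensity of channels A and B was already background-subtracted, and it was 0 at spots here called rejected. The local background, the spot area and the saturation factor, a fraction from 0 to 1, were also deposited, per the file headers. In the authors' deposited table each probe and array had a score that looks like a log ratio, with base and direction not stated and column medians of -0.018 to 0.0015. Quantification software was not given in the sources used here, and it is not known what the scanner settings of the 3 files per array were.

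Spots were sorted by block and position to give probe numbers. In each scan the log2 ratio of channel B over A was smoothed by loess (span 0.3). Scans were averaged, leaving out those with saturated pixels where another had none, and turned to collagen over control. The 2 arrays of a replicate were averaged. Probes with a ratio on 6 arrays and brightness over 1.5 times background on at least 4 arrays were tested (2316, the brightness rule removing 0) with limma 3.58.1 in R 4.3.3 (lmFit, eBayes, two-sided, Benjamini-Hochberg, threshold 0.05). The p-values reflect how far these 3 replicates differed, and that spread may be technical. Normexp background correction became an alternative because the intensities were corrected. The fit was tested on simulated data, drawn as independent normal replicate values with no dye effect, slide edge or missing ratios. That test cannot show how the fit behaves where these are present. Figures used matplotlib 3.10.9.

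Of 10080 probes, 9066 had 1 gene symbol, 12 had several and 1002 had none, and 8977 matched RefSeq (GRCm38.p6) by Entrez identifier. Members and lists were chosen with earlier results of these data known. Named genes were the members, every tested list gene, the 5 probes nearest to Ebp and any with the detection calls of Cyp46a1. Other list genes were named to account for the lists. Same-numbered arrays hold the same replicate per the labels, and their deviations from the means of their orientation correlated at -0.12, -0.38 and 0.089 in replicates 1, 2 and 3.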

Additional observations from a re-analysis of the deposited data

Results flagged for a closer look

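For 4 of 21 sets of array values examined, 1 array stood apart from the others by more than Dixon's 95% limit for that number of values, which chance does in about 1 in 20 sets of independent values. All 4 concern the replicate 1 array with collagen in Cy3. At the Ebp spot the channel A background per pixel in the first scan was 6030, against 394 to 722 on the other 5 arrays. The Cyp46a1 spot had a background of 5189 there, and the 4 other arrays with a value had 467 to 747. The median log2 ratio of the printing block of Ebp was 2.60 on that array, against -0.29 to 0.16 on the others. For the block of Cyp46a1 it was 3.66, against -0.26 to 0.28. The log2 ratios of Ebp, of Cyp46a1, of the 8 other tested sterol genes and of the 5 probes nearest to Ebp held no such array.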

How the results depend on the processing

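The count of sterol genes past the threshold was 0 under all 22 alternatives. The count of probes past it was 0 under 21 of 22 and 27 of 2834 with collagen in Cy5 only, where no dye swap cancels. The sign of Ebp is the value it was chosen on, so its size is given. Its mean was unchanged under 5 alternatives. Changed brightness filters, replicates with 1 array allowed and the replicate block could not move a probe with a ratio on all arrays. Setting rejected channels to the lowest accepted intensity could, but left Ebp unmoved. The Ebp scan with only 1 channel rejected had a saturation factor of 0 and was left out. The mean log2 ratio of Ebp was 0.16 with median centring, 0.15 with print-tip loess, 0.24 with collagen in Cy5 only, 0.95 with collagen in Cy3 only and 0.89 with normexp background correction, and the cause was not tested. In the authors' deposited table, where 1 replicate had both arrays, Ebp was at 0.028 in unstated log units, with 2 of 4 arrays above 0. Without single replicates Ebp ranged from 0.46 to 0.76. With the replicate number as a block Ebp was at 0.59, and the block changed no call. Each orientation alone has 3 arrays, and the choice of Ebp fixes that 3 are above 0. With channel A read as Cy5, Ebp was at -0.59 with 0 arrays above 0, and Cyp46a1 at -0.18.

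Cyp46a1 turned to -0.083 with median centring, to -0.0042 with print-tip loess and to -0.14 with the third scan only, which left 1 replicate. Without single replicates it ranged from -0.14 to 0.50. It was 2.35 with rejected channels set to the lowest accepted intensity, a floor that sets the size of that value. Scans with a saturation factor below 1 were still left out where another had 1. All channels so filled were of control, in replicate 1 with collagen in Cy3 and replicate 3 with collagen in Cy5. The scan with collagen alone rejected was left out. The Cyp46a1 excess of 3 arrays detected in collagen over control was 1 when 1 accepted scan sufficed and 1 with scan 2 alone, rules chosen after seeing the data. Leaving out the fourth block column gave no value for either gene, because both lie there. Signal close to background limits Ebp in replicates 1 and 3 and Cyp46a1 on all arrays.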
